A study of Mus musculus with 112 samples.

Results

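The mouse Hox genes were taken as the 39 genes whose symbol in the count tables reads Hox, then a cluster letter from a to d, then a paralog number. They make up 39 of the 25209 genes listed, and no measured value entered the choice. In mm9 coordinates the 11 HoxA genes lie at chr6:52105366-52210874 on the minus strand. The 10 HoxB genes lie at chr11:96055630-96229567, the 9 HoxC genes at chr15:102751562-102867283 and the 9 HoxD genes at chr2:74506282-74603199, all on the plus strand. Paralog groups 1 to 3 are called anterior here (8 genes), groups 4 to 8 central (15 genes) and groups 9 to 13 posterior (16 genes).

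The libraries came from a study of what LSD1, a histone demethylase encoded by Kdm1a, does in mouse V6.5 embryonic stem cells (ESCs) without its enzyme activity. RNA was sequenced in 112 libraries of 34 groups after rRNA depletion, from ESCs kept in 2i and LIF, from embryoid bodies (EBs, aggregates grown for 6 days in serum medium as hanging drops), from cells kept for 4 days in serum without 2i and LIF, and from epiblast-like cells (EpiLCs, 2 days in Activin A and FGF2). LSD1KO cells lack the promoter and first exon of Kdm1a, and LSD1CI cells carry a catalytically inactive LSD1 at the endogenous locus. RCOR1KO, RCOR2KO and RCOR12DKO cells lack the CoREST subunits RCOR1, RCOR2 or both, and MLL4KO cells lack the H3K4 methyltransferase MLL4, encoded by Kmt2d. MLL4LSD1DKO and MLL4KOLSD1CI cells had MLL4 removed from LSD1KO and LSD1CI cells. LSD1Res ESCs carry a doxycycline-inducible (DOX) tagged LSD1 in LSD1KO cells and DKO_LSD1 ESCs carry an inducible tagged LSD1 in RCOR12DKO cells, each with 48 h of DOX or none. LSD1KO ESCs without the transgene were also kept with DOX or without it. LSD1KO cells of every culture were also given A485, an inhibitor of the acetyltransferases P300 and CBP, or its solvent DMSO. The paper used a lower dose of A485 in EBs than in ESCs and states none for serum cells or EpiLCs. Culture and dose therefore cannot be told apart between the A485 comparisons. All WT and LSD1CI serum cells and EpiLCs, and the WT DMSO EBs, were given DMSO too. Groups held 2 to 4 libraries, except LSD1KO ESCs with 6, WT EBs with 7 and WT ESCs with 11. By the methods, mutants were used as 2 independent clones, but the labels do not tie a library to a clone, so the p-values measure the spread between these libraries.

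Hox genes encode homeodomain transcription factors that give cells their position along the head-to-tail axis. In each cluster the anterior genes lie at the 3′ end and are switched on first and farthest forward in the embryo, and the posterior genes lie at the 5′ end and follow later and farther back. In ESCs the clusters are largely held silent under Polycomb marks, and retinoic acid, Wnt and FGF signals open them during differentiation. The proteins bind DNA together with TALE homeodomain partners of the PBX, MEIS and PKNOX families.

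The 200 bases before the start of 3 members are shown because results below turn on these genes: Hoxb1 is an anterior gene that was high in LSD1KO EBs, and Hoxd4 and Hoxd8 were high in mutant ESCs. The windows are at chr11:96226872-96227071 (Hoxb1), chr2:74559835-74560034 (Hoxd4) and chr2:74542472-74542671 (Hoxd8), in mm9. Capitals mark matches, on either strand, to TGATNNAT (bound by PBX with HOX proteins), TTTATNG (CDX), AGGTCA (the core of retinoic acid receptor sites) and GGGNGTGG (KLF).
Hoxb1: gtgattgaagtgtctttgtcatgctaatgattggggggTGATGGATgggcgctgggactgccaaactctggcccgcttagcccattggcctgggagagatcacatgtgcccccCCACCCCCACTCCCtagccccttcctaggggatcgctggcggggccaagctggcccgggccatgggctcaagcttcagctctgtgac
Hoxd4: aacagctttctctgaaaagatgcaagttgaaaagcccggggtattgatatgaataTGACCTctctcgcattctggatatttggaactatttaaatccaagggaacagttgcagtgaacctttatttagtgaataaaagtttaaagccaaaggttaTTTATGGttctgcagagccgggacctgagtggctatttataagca
Hoxd8: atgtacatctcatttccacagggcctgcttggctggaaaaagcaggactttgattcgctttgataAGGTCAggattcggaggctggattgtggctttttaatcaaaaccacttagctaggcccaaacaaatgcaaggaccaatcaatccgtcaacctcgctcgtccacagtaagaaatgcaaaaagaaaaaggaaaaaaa
The capitals in Hoxb1 hold 1 TGATNNAT match and, farther on, 2 overlapping GGGNGTGG matches on the other strand. Hoxd4 holds 1 AGGTCA match on the other strand and 1 TTTATNG match, and Hoxd8 holds 1 AGGTCA match. TGATNNAT occurred in 7 of the 39 Hox windows (17.9%), against 5.27% of 24930 windows of the same length before all genes that could be placed. AGGTCA occurred in 8 Hox windows (20.5%, against 9.94% of all), TTTATNG in 4 (10.3%, against 7.37%) and GGGNGTGG in 4 (10.3%, against 15.1%). A match is a run of letters, and no binding was measured here.

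Libraries held 17.2 to 58.2 M counted reads (M, mega), of which the rRNA gene Rn45s took 8.06% to 24.9%. Levels are given per library in CPM, counts scaled to the library's total. Most low counts were even numbers (72.2% to 84.7% of counts between 2 and 39), so the precision of a low value may be below what its count implies. Kdm1a stood at 3.43 to 6.85 CPM in LSD1KO ESCs and 7.13 to 7.23 CPM in LSD1KO EBs, against 141 to 226 CPM in WT ESCs and 179 to 224 CPM in WT EBs, and Rcor1 was likewise lower in every RCOR1KO library. Rcor2 stood at 0.674 to 4.46 CPM in RCOR2KO ESCs against 87.4 to 104 CPM in WT ESCs, but RCOR2KO EBs still held 44.6 to 53.8 CPM against 121 to 153 CPM in WT EBs. Kmt2d, of which the files count the whole gene, overlapped between MLL4KOLSD1CI ESCs (197 to 398 CPM) and WT ESCs (307 to 746 CPM). WT ESC libraries 1 to 3 and all LSD1KO ESC libraries had no counts on unplaced contigs, unlike the other libraries of WT and mutant ESCs kept without DOX, DMSO or A485, and the sources used here do not say why. The naive markers were high in WT ESCs (summed 1819 to 2190 CPM), while in LSD1KO EBs the blood marker Hbb-y was at 0.

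**Figure D1:**
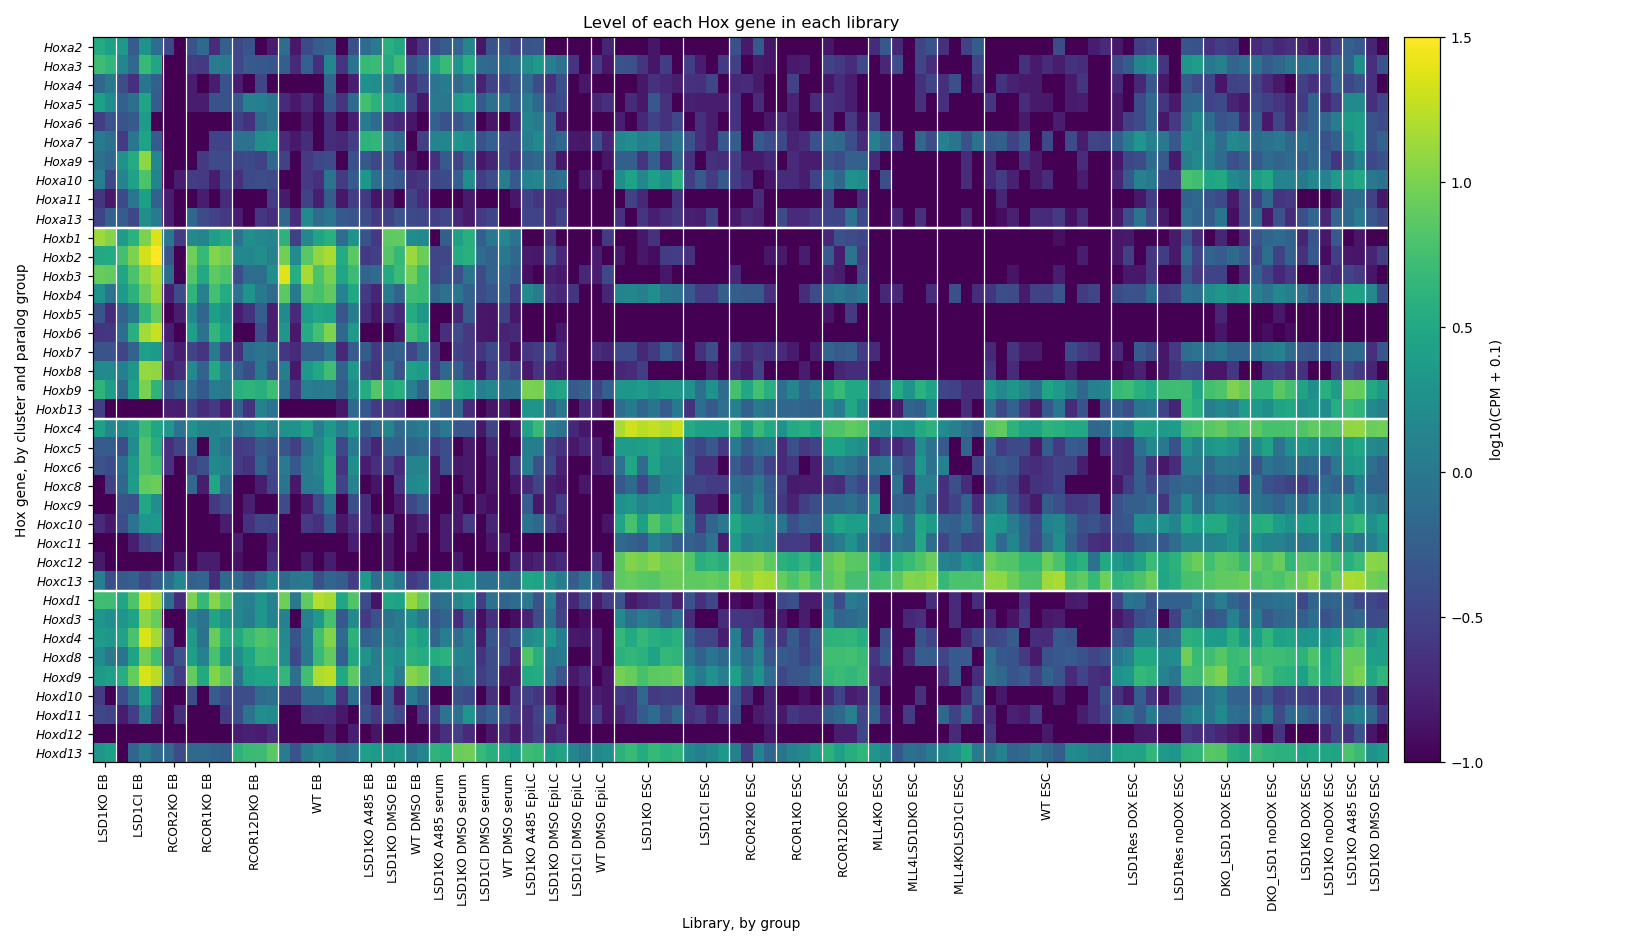
Level of Hox genes (rows, by cluster and paralog number) in each of the 112 libraries (columns, by culture and group), coloured by log10(CPM + 0.1). HoxB and HoxD genes are high in most WT EB columns, Hoxc12 and Hoxc13 stand out in the WT ESC columns, and the EpiLC columns of WT cells are nearly empty.

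WT cells were compared between cultures to show which members each culture switches on. In WT EBs 18 of the 35 Hox genes tested rose and 4 fell against WT ESCs, where 22.6% and 14.3% of all 17915 genes tested rose and fell; a gene is said to rise or fall where edgeR's quasi-likelihood test gave an adjusted p under 0.01 and a change over 1 on the log2 scale. The median log2 fold change was 2.59 over the Hox genes and 0.08 over all genes. The genes that rose were 7 of 8 anterior genes and 8 of 14 central genes tested, and the 4 that fell were Hoxc10, Hoxc11, Hoxc12 and Hoxc13, the posterior end of HoxC. All summed, Hox genes gave 72.0 ± 44.7 CPM in WT EBs (SD, n = 7), of which the anterior genes gave 36.2 CPM, against 26.1 ± 9.72 CPM in WT ESCs (n = 11), of which they gave 1.19 CPM. Fewer cells of a type and less RNA per cell cannot be told apart in these bulk samples.

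Hoxb2, which shapes facial motor neurons in the hindbrain, had 1.5 CPM in the lowest WT EB library, a median of 7.22 and 15.3 in the highest, against 0 in 10 of 11 WT ESC libraries and 0.0544 CPM in the other. The groups did not overlap, and the ratio of summed counts, 2010 against 2, was 1573 (95% counting interval 435 to 13001). Hoxb1, which sets the identity of a hindbrain segment, had 0.197 to 4.03 CPM with a median of 1.82 in WT EBs, against 1 count in all WT ESCs together, a ratio of 829.7 (148.3 to 32834.1). These intervals cover counting error only. Hoxb3, another hindbrain gene, ran between 2.93 and 23.7 CPM (median 6.13) in WT EBs, against 0 to 0.0554 CPM (median 0) in WT ESCs, a log2 change of 9.36 ± 0.61 (SE, adjusted p = 2.0e-12). Hoxb5 and Hoxb6, central genes of the neck and trunk, were at 0 in every WT ESC library and were at least 17.0-fold and at least 37.9-fold higher in WT EBs, taking 3 counts per library as the floor.

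In HoxD, Hoxd1, which acts in pain-sensing neurons, had 0.885 to 16.6 CPM (median 7.67) in WT EBs, against 0 to 0.106 CPM (median 0) in WT ESCs, and changed by 8.35 ± 0.66 (adjusted p = 6.7e-11). Hoxd9, a gene of the lumbar spine and limb, had 0.738 to 17.1 CPM (median 5.31) in WT EBs, against 0.103 to 0.780 CPM (median 0.333) in WT ESCs, and changed by 4.28 ± 0.50 (adjusted p = 6.0e-08). Hoxd1 did not overlap between cultures, while the lowest WT EB library reached into the WT ESC range for Hoxd9. Hoxb4, known for expanding blood stem cells, had 0.934 to 7.65 CPM (median 5.89) in WT EBs, against 0 to 0.360 CPM (median 0.197) in WT ESCs, and changed by 4.52 ± 0.57 (adjusted p = 1.9e-07). Of the genes that fell, Hoxc12 had 0 to 0.0558 CPM (median 0) in WT EBs, against 0.755 to 8.67 CPM (median 4.55) in WT ESCs, a change of -8.29 ± 0.79 (adjusted p = 2.7e-09). Hoxc13, which hair and nails need, had 0.182 to 1.01 CPM (median 0.558) in WT EBs, against 4.59 to 15.0 CPM (median 8.66) in WT ESCs, a change of -4.18 ± 0.36 (adjusted p = 3.3e-10). Neither gene overlapped between the cultures. Per kilobase of transcript, Hoxb2 (4.88 RPKM), Hoxd1 (4.43), Hoxd9 (3.63) and Hoxb3 (2.52) led in WT EBs, and the spread between the 7 libraries was wide enough that neighbours in that order cannot be ranked. In WT ESCs the order was Hoxc12 (5.34 RPKM), Hoxc13 (3.79), Hoxc4 (1.80) and Hoxc11 (0.798). With a fit of these 2 groups alone, 13 Hox genes were called in place of 22.

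The WT EB libraries differed from each other. Their summed Hox levels were 82.3, 14.2, 73.9, 101, 145, 24.0 and 63.1 CPM in libraries 1 to 7, so libraries 2 and 6 lay far below the others. Every EB mutant below except those given DMSO or A485 was set against these 7 libraries, and the cardiac markers moved widely in them too, with summed levels of 138.5 to 827.5 CPM. The part that tissue makeup had in any EB result was not tested.

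**Figure D2:**
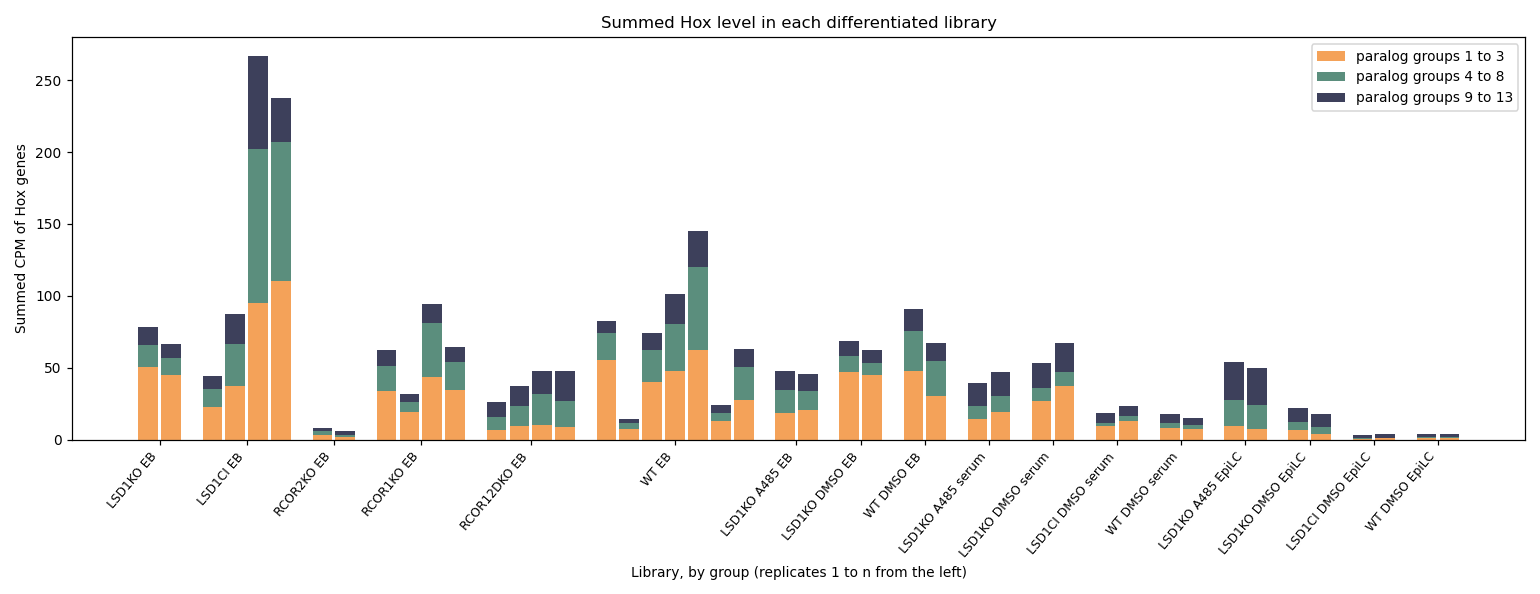
Summed CPM of anterior, central and posterior Hox genes (stacked bars, starting at 0) in each differentiated library, by group. WT EB libraries 2 and 6 stand at 14.2 and 24.0 CPM beside 63.1 to 145 CPM in the other 5, and RCOR2KO EBs are the lowest EB group.

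WT DMSO serum cells were set against WT ESCs in the same way. In WT DMSO serum cells 9 of 35 Hox genes rose and 5 fell against WT ESCs, where 13.3% and 7.97% of all genes rose and fell, with a median log2 change of 0.54 (0.04 with genes at 0 in a group set at their bound), against -0.03 over all genes. The 9 were 6 anterior genes, the central Hoxa5 and Hoxb5 and the posterior Hoxd13, and all 5 that fell were HoxC genes. Hoxd13, which digits need, had 3.11 and 2.49 CPM in WT DMSO serum cells, against 0.443 to 1.42 CPM (median 0.903) in WT ESCs, and changed by 1.62 ± 0.41 (adjusted p = 0.0025). Both serum libraries were above every WT ESC library. Hoxb1 stood at 1.32 and 0.832 CPM, a ratio of 439 to WT ESCs by 88 counts against 1 (76.7 to 17516), and Hoxb2 gave a ratio of 152 by 61 counts against 2 (40.3 to 1283). Hoxc4, a gene of the neck and upper trunk, had 0 and 0.0462 CPM in WT DMSO serum cells, against 0.581 to 7.62 CPM (median 3.21) in WT ESCs, and was 166-fold lower by 2 counts against 1652 (45.8 to 1370). Hoxc10 was at least 12.4-fold and Hoxc5 at least 3.45-fold lower, and Hoxc12 (0 and 0.0924 CPM) and Hoxc13 (0.713 and 0.624 CPM) fell by 6.74 and 3.84 on the log2 scale. Leaving out WT DMSO serum library 1 or 2 left 7 and 8 genes called, and the serum cells were given DMSO while the WT ESCs were not, so medium and solvent cannot be told apart.

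WT DMSO EpiLCs held little Hox RNA, with summed levels of 4.10 and 3.91 CPM. In them 2 of 35 Hox genes rose and 4 fell against WT ESCs, where 9.26% and 7.68% of all genes rose and fell, and the median log2 change was -1.91 (-0.51 with genes at 0 at their bound), against -0.05 over all genes. Hoxc13 had 0.539 and 0.165 CPM in WT DMSO EpiLCs, against 4.59 to 15.0 CPM (median 8.66) in WT ESCs, and changed by -4.71 ± 0.68 (adjusted p = 7.2e-06). Hoxc12 had 0.108 and 0 CPM against 0.755 to 8.67 CPM (median 4.55), and changed by -6.60 ± 1.26 (adjusted p = 0.00025). Hoxc4 and Hoxc11 were at 0 in both WT DMSO EpiLC libraries and were at least 50.1-fold and at least 10.2-fold lower than in WT ESCs. The 4 genes did not overlap between the cultures, and 13 members had no count in either WT DMSO EpiLC library. The 2 that rose were Hoxb1, with 8 counts against 1, a ratio of 38.4 (5.15 to 1706), and Hoxb3, at 0.0539 and 0.247 CPM. All 8 Hoxb1 counts lay in WT DMSO EpiLC library 2 (0.165 CPM), and library 1 was at 0, so its rise rests on 1 library. Only Hoxd13 (1.40 and 1.57 CPM) passed 1 CPM. The EpiLCs were given DMSO while the WT ESCs were not, so medium and solvent cannot be told apart. Without WT DMSO EpiLC library 2, 2 genes were called, and with DESeq2 10 were.

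LSD1KO ESCs were set against WT ESCs to ask which Hox genes differ without LSD1 before differentiation. In LSD1KO ESCs 19 of 29 Hox genes tested rose and 0 fell against WT ESCs, where 10.2% and 10.8% of all 17603 genes rose and fell, and the median log2 change was 2.41 over the Hox genes and -0.08 over all genes. All 8 HoxD genes tested rose, with 6 of 9 HoxC, 3 of 7 HoxA and 2 of 5 HoxB genes. By position these were 3 of 6 anterior, 8 of 9 central and 8 of 14 posterior genes. A member could pass the filter on low counts through any group of its fit in which it was high, so counts and medians over the members tested, here and below, are descriptions. Summed Hox levels were 78.3 ± 7.89 CPM in LSD1KO ESCs (SD, n = 6), against 26.1 ± 9.72 CPM in WT ESCs (n = 11), with no overlap. LSD1KO ESC libraries 1, 3 and 5 held 71.6, 68.9 and 73.5 CPM. Libraries 2, 4 and 6 held 86.4, 83.2 and 86.3 CPM, so the 6 may not be independent. The WT ESC libraries ran from 10.7 to 41.6 CPM. The central genes gave 33.2 CPM of the sum in LSD1KO ESCs against 5.22 CPM in WT ESCs, while the anterior genes gave 2.59 CPM against 1.19 CPM.

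Hoxd9 had 5.86 CPM in the lowest LSD1KO ESC library, a median of 7.77 and 9.31 in the highest, against 0.103, 0.333 and 0.780 CPM in WT ESCs, and changed by 4.45 ± 0.34 (adjusted p = 8.6e-14). Hoxd8, its neighbour on the 3′ side, had 2.68, 4.05 and 4.51 CPM in LSD1KO ESCs, against 0.0531, 0.327 and 0.711 CPM in WT ESCs, and changed by 3.53 ± 0.37 (adjusted p = 1.1e-10). Hoxd4, a hindbrain and neck gene that answers retinoic acid, had 3.24, 3.68 and 4.55 CPM, against 0, 0.106 and 0.412 CPM in WT ESCs, and changed by 4.40 ± 0.57 (adjusted p = 1.7e-08). Each of these 3 HoxD genes was higher in every LSD1KO ESC library than in any WT ESC library. Hoxd13 had 3.37, 4.14 and 4.75 CPM in LSD1KO ESCs, against 0.443, 0.903 and 1.42 CPM in WT ESCs, and changed by 2.24 ± 0.27 (adjusted p = 2.4e-09). Hoxa10, needed in the uterus and the lumbar spine, had 1.34, 2.09 and 3.62 CPM, against 0, 0.0531 and 0.173 CPM in WT ESCs, and changed by 5.26 ± 0.57 (adjusted p = 4.8e-10). These posterior genes did not overlap between the groups either.

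In HoxC every gene from Hoxc4 to Hoxc10 rose, and Hoxc11, Hoxc12 and Hoxc13 were not called. Hoxc4 had 15.3, 17.7 and 20.6 CPM in LSD1KO ESCs, against 0.581, 3.21 and 7.62 CPM in WT ESCs, and changed by 2.28 ± 0.30 (adjusted p = 3.1e-08). Hoxc5, the next gene, had 1.94, 2.29 and 2.81 CPM, against 0, 0.258 and 0.504 CPM, and changed by 3.14 ± 0.46 (adjusted p = 2.2e-07). Hoxc10, a gene of lumbar motor neurons, had 2.56, 4.94 and 6.55 CPM, against 0.206, 0.632 and 2.13 CPM, and changed by 2.29 ± 0.37 (adjusted p = 1.3e-06). None of the 3 overlapped between the groups. Hoxc12 averaged 9.56 ± 1.32 CPM in LSD1KO ESCs and 5.14 ± 2.45 CPM in WT ESCs, a difference of 0.87 ± 0.26 on the log2 scale (adjusted p = 0.0033) that was under the size needed for a call. Hoxc13 averaged 7.70 ± 0.633 CPM in LSD1KO ESCs and 9.22 ± 3.45 CPM in WT ESCs (adjusted p = 0.20). Among the other genes called, Hoxd3 changed the most (4.39) and Hoxa7 the least (2.22), while Hoxb2 had 19 counts against 2 in WT ESCs, a ratio of 15.4 (3.71 to 136). Per kilobase of transcript, Hoxc12 (9.94 RPKM) and Hoxc4 (9.02) led in LSD1KO ESCs, followed by Hoxd9 (3.71), Hoxc13 (3.16), Hoxc10 (2.41) and Hoxd8 (1.82). With a term for libraries that lack counts on unplaced contigs, 10 Hox genes were called, Hoxc10 no longer among them, and with only the WT ESC libraries that lack them too, 13 were, a choice made after seeing the data.

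**Figure D3:**
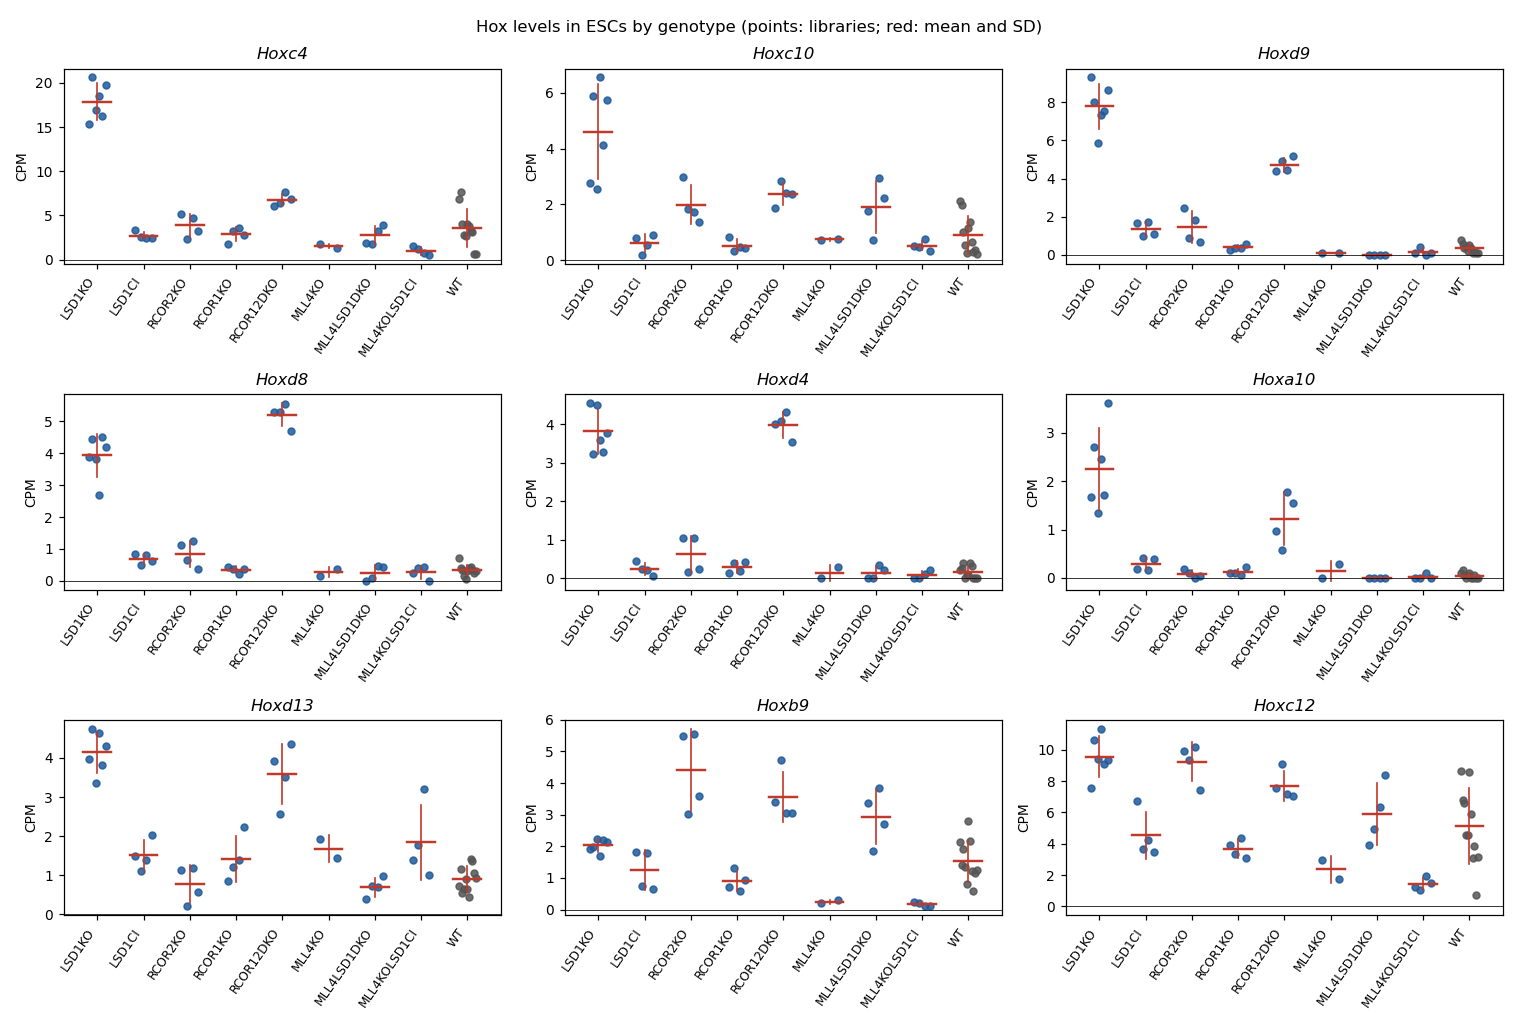
CPM of 9 Hox genes in each ESC library of 9 genotypes (points, 1 per library; red, group mean and SD), mutants first and WT ESCs last in each panel. Hoxd9, Hoxd8 and Hoxd4 are above every WT ESC library in LSD1KO and RCOR12DKO ESCs, while in the MLL4 mutants they are below 0.5 CPM.

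ESCs without both CoREST scaffolds were set against the same WT ESCs. In RCOR12DKO ESCs 16 of 29 Hox genes rose and 0 fell against WT ESCs, where 11.3% and 6.32% of all genes rose and fell, with a median log2 change of 1.88 against -0.06 over all genes. They were 7 of 8 HoxD genes, 4 of 5 HoxB, 4 of 7 HoxA and 1 of 9 HoxC genes. Summed Hox levels were 62.6 ± 3.40 CPM in RCOR12DKO ESCs (n = 4), against 26.1 ± 9.72 CPM in WT ESCs. Both this comparison and that of LSD1KO ESCs use the same WT ESCs, so their values are set side by side and no overlap is drawn from them.

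Hoxd8 had 5.31, 5.29, 5.56 and 4.70 CPM in RCOR12DKO ESCs, against at most 0.711 CPM in WT ESCs, and changed by 3.78 ± 0.40 (adjusted p = 1.8e-10). Hoxd9 had 4.41, 4.93, 4.43 and 5.16 CPM against at most 0.780 CPM, and changed by 3.57 ± 0.36 (adjusted p = 1.2e-10). Hoxd4 had 4.01, 4.08, 4.32 and 3.53 CPM against at most 0.412 CPM, and changed by 4.29 ± 0.60 (adjusted p = 1.6e-07). The RCOR12DKO ESC libraries lay close together and above every WT ESC library for all 3. Hoxd13 had 3.92, 2.57, 3.51 and 4.36 CPM, against 0.443 to 1.42 CPM (median 0.903) in WT ESCs, and changed by 1.87 ± 0.29 (adjusted p = 1.4e-06).

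Among the HoxB genes, Hoxb9, a gene of the thoracic skeleton and mammary gland, had 3.41, 4.74, 3.05 and 3.04 CPM in RCOR12DKO ESCs, against 0.571 to 2.80 CPM (median 1.33) in WT ESCs, and changed by 1.05 ± 0.29 (adjusted p = 0.0027). Hoxb13, a gene of the tail and prostate, had 1.53, 0.986, 2.97 and 1.55 CPM, against 0 to 0.859 CPM (median 0.309), and changed by 2.16 ± 0.52 (adjusted p = 0.00069). Hoxb2 had 58 counts against 2 in WT ESCs, a ratio of 76.8 (20.3 to 649). Of HoxC, Hoxc5 alone was called, with 2.68, 2.74, 1.89 and 1.61 CPM in RCOR12DKO ESCs, against 0 to 0.504 CPM (median 0.258) in WT ESCs, and it changed by 2.92 ± 0.50 (adjusted p = 5.8e-06). Hoxc4 averaged 6.73 ± 0.680 CPM in RCOR12DKO ESCs and 3.58 ± 2.18 CPM in WT ESCs and did not pass. The call of Hoxb9 was lost without RCOR12DKO ESC library 2 and in a fit of the compared groups alone, and the replicate number as a block left 10 genes called.

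Catalytically inactive LSD1 and the single CoREST mutants moved few members. In LSD1CI ESCs 1 of 29 Hox genes rose and 0 fell, against 2.08% and 1.16% of all genes, with a median of 0.37 against -0.05 over all genes. This was Hoxd9, with 1.65, 0.993, 1.73 and 1.07 CPM in LSD1CI ESCs, against 0.103 to 0.780 CPM (median 0.333) in WT ESCs, a change of 1.88 ± 0.37 (adjusted p = 0.00053) that was lost in a fit of these groups alone. In RCOR2KO ESCs 3 rose and 0 fell, against 2.33% and 1.52% of all genes, with a median of 0.99 against -0.01. Hoxb9 had 5.5, 3.01, 5.55 and 3.60 CPM in RCOR2KO ESCs, against 0.571 to 2.80 CPM (median 1.33) in WT ESCs, and changed by 1.58 ± 0.29 (adjusted p = 8.6e-05). Hoxd9 had 2.45, 0.902, 1.82 and 0.689 CPM, against 0.103 to 0.780 CPM (median 0.333), and changed by 2.10 ± 0.37 (adjusted p = 6.7e-05). Hoxb9 was above every WT ESC library, and the lowest RCOR2KO library overlapped WT ESCs for Hoxd9. Summed Hox levels were 55.1 and 52.2 CPM in RCOR2KO ESC libraries 1 and 3. They were 34.8 and 37.5 CPM in libraries 2 and 4, so the 4 may not be independent. The third gene was Hoxc8, a gene of the thoracic spine, at 0.431 to 0.933 CPM. A fit of these groups alone called 1 gene, and one with the term for unplaced contigs called 8. In RCOR1KO ESCs edgeR called 0 of 29 Hox genes higher and 0 lower, against 0.0568% and 0.0852% of all genes, with a median of -0.46 (-0.43 at the bound) against -0.04, while 5 members had an unadjusted p under 0.05 and DESeq2 called 1.

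MLL4KO ESCs had 2 posterior HoxB genes called lower, a share near that of all genes. In MLL4KO ESCs 0 of 29 Hox genes rose and 2 fell, against 3.84% and 6.85% of all genes, with a median of -0.74 (-0.22 at the bound) against -0.04. Hoxb9 had 0.202 and 0.288 CPM in MLL4KO ESCs, against 0.571 to 2.80 CPM (median 1.33) in WT ESCs, and changed by -2.73 ± 0.56 (adjusted p = 0.00021). Hoxb13 was at 0 in both MLL4KO libraries and at least 2.28-fold lower. A fit of these groups alone called 0 Hox genes. Hoxb9 did not overlap between the groups, but its call was lost without MLL4KO ESC library 1.

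In MLL4KOLSD1CI ESCs 1 of 29 rose and 4 fell, against 6.28% and 7.8% of all genes, with a median of -0.57 (-0.38 at the bound) against -0.02. Hoxb9 had 0.231, 0.207, 0.107 and 0.111 CPM in MLL4KOLSD1CI ESCs, against 0.571 to 2.80 CPM (median 1.33) in WT ESCs, and changed by -3.26 ± 0.44 (adjusted p = 9.7e-08). Hoxc12 had 1.21, 1.04, 1.93 and 1.5 CPM, against 0.755 to 8.67 CPM (median 4.55), and changed by -1.94 ± 0.36 (adjusted p = 3.5e-05). Hoxc4 had 1.5, 1.14, 0.749 and 0.5 CPM, against 0.581 to 7.62 CPM (median 3.21), and changed by -1.98 ± 0.44 (adjusted p = 0.00043). Hoxb9 lay below every WT ESC library, and both HoxC genes overlapped. WT ESC libraries 10 and 11, of about the same depth as these mutants, had 0.581 and 0.617 CPM of Hoxc4, inside the range of the 4 mutant libraries, and the other WT ESC libraries had 2.66 CPM or more. Hoxb13 was 13.5-fold lower by 2 counts against 151 (3.66 to 112). Hoxd13 had 1.38, 1.76, 3.21 and 1.00 CPM, against 0.443 to 1.42 CPM (median 0.903), and its change of 1.00 ± 0.31 (adjusted p = 0.0099) lay at the threshold and was lost without library 1, 2 or 3. Leaving out MLL4KOLSD1CI ESC library 1 or 2 left 3 genes called each.

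In MLL4LSD1DKO ESCs 2 of 29 rose and 1 fell, against 8.59% and 5.58% of all genes, with a median of 0.08 against 0.00. Hoxc8, 1 of those that rose, had 0.0904 to 1.15 CPM. Hoxd9 was at 0 in all 4 MLL4LSD1DKO libraries, at least 2.19-fold lower than in WT ESCs, while LSD1KO ESCs had 5.86 to 9.31 CPM. The term for unplaced contigs brought the count to 5. Summed Hox levels were 26.5, 29.0, 42.2 and 43.1 CPM in MLL4LSD1DKO ESC libraries 1 to 4. WT ESC libraries 10 and 11 held 10.7 and 18.4 CPM, and the other WT ESC libraries 18.4 to 41.6 CPM. MLL4KO ESCs held 19.5 and 15.1 CPM, and MLL4KOLSD1CI ESCs 13.7 to 17.5 CPM. A fit against WT ESC libraries 10 and 11 alone was not run, so the MLL4 counts hold for the pooled WT ESCs only.

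Returning LSD1 to LSD1KO ESCs asked whether the members come down again. In LSD1Res ESCs Kdm1a reached 980 to 2253 CPM with DOX, against 10.8 to 38.1 CPM without. Summed Hox levels were 27.5, 28.9, 89.9 and 81.8 CPM in libraries 1 to 4 without DOX, and 24.9, 28.5, 48.4 and 54.7 CPM with DOX. Without DOX, libraries 1 and 2 already lay within the range of WT ESCs (10.7 to 41.6 CPM). LSD1KO ESCs without the transgene or DOX held 54.3 and 62.6 CPM. Libraries 1 and 2 therefore had little raised Hox RNA to bring down. EdgeR called 0 of 35 Hox genes higher and 0 lower with DOX, against 0.32% and 2.05% of all 16862 genes, with a median log2 change of -0.96 against -0.01, and 8 members had an unadjusted p under 0.05 while DESeq2 called 1. Libraries of the same number moved together here, and with the replicate number as a block 3 members fell. Hoxc4 had 1.17, 1.01, 2.80 and 2.64 CPM with DOX, against 2.16, 2.31, 5.60 and 6.06 CPM without, and with the block it changed by -1.04 ± 0.18 (adjusted p = 0.0010). Hoxc10 had 0.336, 0.392, 1.52 and 1.41 CPM with DOX, against 1.73, 1.25, 3.05 and 2.43 CPM without, and changed by -1.33 ± 0.30 (adjusted p = 0.0043). Both genes were lower with DOX in 4 of 4 pairs, and libraries 3 and 4 stood above libraries 1 and 2 in both groups, so the groups overlapped. Hoxd4 was the third, at -1.32 ± 0.27 (adjusted p = 0.0028). Hoxb9 had 4.62, 5.17, 3.73 and 3.08 CPM with DOX, against 5.06, 5.16, 5.10 and 3.08 CPM without, and was not called in either fit.

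In DKO_LSD1 ESCs, where RCOR1 and RCOR2 are missing, Kdm1a reached 1830 to 6038 CPM with DOX, against 253 to 276 CPM without. EdgeR called 0 of 35 Hox genes higher and 0 lower, against 0.172% and 0.16% of all genes, with a median of 0.14 against 0.01, 2 members at an unadjusted p under 0.05 and 0 called by DESeq2. Hoxc4 had 7.04, 7.78, 5.95 and 6.77 CPM with DOX, against 7.32, 5.88, 5.82 and 5.99 CPM without, and Hoxd9 had 8.28, 10.1, 4.88 and 4.05 CPM with DOX, against 7.73, 5.53, 4.01 and 3.78 CPM without. Those ranges overlapped. With the block, which paired these libraries too, Hoxb1 fell, with 0, 0.0862, 0 and 0.0931 CPM with DOX, against 0.357, 0.549, 0.642 and 0.523 CPM without (-3.49 ± 0.70, adjusted p = 0.0039). DOX alone, in LSD1KO ESCs without the transgene, called 0 of 35 higher and 0 lower, against 0% and 0.0178% of all genes, with a median of -0.06 (-0.05 at the bound) against 0.02, 1 member at an unadjusted p under 0.05 and 0 called by DESeq2. Whether the DOX effect differs between LSD1Res and DKO_LSD1 ESCs was not tested.

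EBs asked how the mutants take up the anterior and trunk programme. LSD1KO EBs were measured in 2 sets of libraries, without solvent and with DMSO, that share no library and can be set side by side. They differed in the Kdm1a RNA left, 7.13 to 7.23 CPM in LSD1KO EBs and 0.431 to 0.515 CPM in LSD1KO DMSO EBs. LSD1KO DMSO serum cells held 1.55 to 1.63 CPM of it and LSD1KO DMSO EpiLCs 0.379 to 0.429 CPM. The source of this difference was not tested. In the first set, 4 of 36 Hox genes rose and 0 fell in LSD1KO EBs against WT EBs, where 8.28% and 5.42% of all 17928 genes rose and fell, with a median log2 change of -0.15 against 0.02. In the second, 6 of 33 rose and 9 fell in LSD1KO DMSO EBs against WT DMSO EBs, where 11.7% and 7.13% of all 16468 genes rose and fell, with a median of -0.02 against 0.02. Hoxa3, Hoxa5 and Hoxb1 rose in both, 3 of the 4 in the first and 3 of the 6 in the second, and no gene was called lower in both. The HoxA genes had a median of 2.99 in the first set and 2.53 in the second, while HoxB, HoxC and HoxD medians were -0.31, -1.03 and -0.63 in the first.

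Hoxb1 had 13.6 and 10.9 CPM in LSD1KO EBs, against 0.197 to 4.03 CPM (median 1.82) in WT EBs, and changed by 2.56 ± 0.71 (adjusted p = 0.0075). In the second set it had 7.43 and 7.63 CPM in LSD1KO DMSO EBs, against 1.56 and 1.36 CPM in WT DMSO EBs, and changed by 2.28 ± 0.33 (adjusted p = 0.00019). The groups did not overlap in either. Hoxa3, which the thymus and parathyroid need, had 5.20 and 4.28 CPM in LSD1KO EBs, against 0.0983 to 1.34 CPM (median 0.465) in WT EBs, and changed by 3.28 ± 0.75 (adjusted p = 0.0018). In the second set it had 3.26 and 5.10 CPM in LSD1KO DMSO EBs, against 0.329 and 0.544 CPM in WT DMSO EBs, and changed by 3.18 ± 0.39 (adjusted p = 5.0e-05). Hoxa5, which the lung and neck skeleton need, had 2.47 and 1.5 CPM in LSD1KO EBs, against 0.0307 to 0.669 CPM (median 0.106) in WT EBs, and changed by 3.24 ± 0.80 (adjusted p = 0.0034). In the second it stood at 2.15 and 1.82 CPM against 0.206 and 0.0494 CPM. Neither gene overlapped between genotypes. The fourth gene of the first set was Hoxa7, at 0.967 and 0.737 CPM against at most 0.182 CPM. Leaving out LSD1KO EB library 1 or 2 ended all 4 calls, leaving out WT EB library 3 left 2, and a fit of these groups alone called 1.

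The second set also showed genes that fell, all of them from HoxB, HoxC and HoxD and 7 of the 9 central. Hoxd9 had 2.04 and 1.05 CPM in LSD1KO DMSO EBs, against 10.8 and 8.75 CPM in WT DMSO EBs, and changed by -2.74 ± 0.34 (adjusted p = 5.0e-05). Hoxd1 had 2.88 and 2.73 CPM against 12.5 and 8.06 CPM, and changed by -1.96 ± 0.37 (adjusted p = 0.0014). Hoxb4 had 0.988 and 0.526 CPM against 5.18 and 4.79 CPM, and changed by -2.79 ± 0.42 (adjusted p = 0.00024). The 2 genotypes did not overlap in any of them. Hoxb6 had 0 and 0.0478 CPM in LSD1KO DMSO EBs, against 5.22 and 3.66 CPM in WT DMSO EBs, and was 199-fold lower by 2 counts against 402 (54.8 to 1651). Hoxb5, Hoxb8, Hoxc6, Hoxc8 and Hoxd4 fell by 1.53 to 4.41 on the log2 scale.

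The genes that rose in the same EBs were 4 anterior genes, Hoxa5 and the posterior Hoxb9. Hoxa2, which shapes the facial skeleton, had 3.74 and 3.04 CPM in LSD1KO DMSO EBs, against 0.0411 and 0.148 CPM in WT DMSO EBs, and changed by 5.09 ± 0.60 (adjusted p = 3.6e-05). Hoxb9 had 3.01 and 3.61 CPM against 1.13 and 0.544 CPM, and changed by 1.88 ± 0.43 (adjusted p = 0.0046). The genotypes did not overlap for either gene. Summed, the anterior genes gave 45.9 CPM in LSD1KO DMSO EBs and 39 CPM in WT DMSO EBs, and the central genes 9.90 and 26.1 CPM. Leaving out LSD1KO DMSO EB library 1 brought the count to 9. Primitive streak markers summed to 437.6 to 535.4 CPM in LSD1KO EBs and 290.8 to 344.3 CPM in LSD1KO DMSO EBs, against 39.2 to 146.8 CPM in WT EBs and 28.0 to 29.3 CPM in WT DMSO EBs. Cardiac markers summed to 55.7 to 56.5 and 36.9 to 38.6 CPM in the same mutant groups, against 138.5 to 827.5 and 521 to 686 CPM. Their part in the Hox results was not tested.

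**Figure D4:**
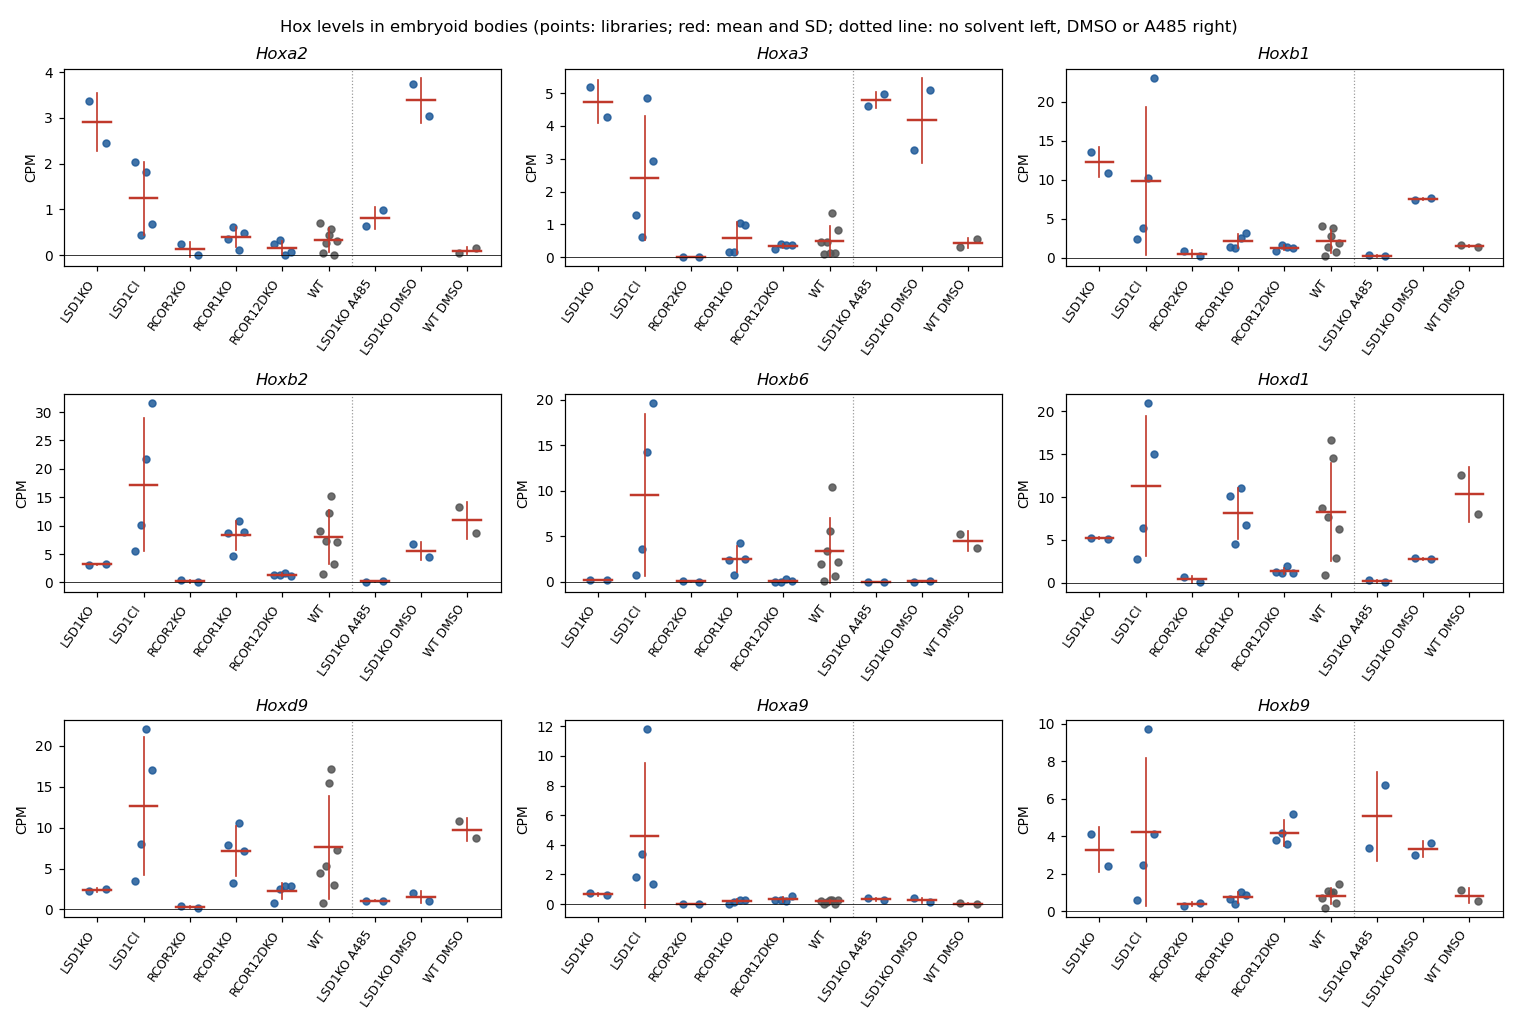
CPM of 9 Hox genes in each EB library of 9 groups (points, 1 per library; red, group mean and SD), with a dotted line between the libraries without solvent and those with DMSO or A485, and WT last on each side. Hoxb1 and Hoxa3 are high in LSD1KO EBs and LSD1KO DMSO EBs, while Hoxb6 and Hoxd9 are low in LSD1KO DMSO EBs and scatter widely in WT EBs.

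In LSD1CI EBs 4 of 36 Hox genes rose and 0 fell, against 0.993% and 1.55% of all genes, with a median of 1.87 against -0.03, and 33 of the 36 had a positive change. Hoxa9, a gene of blood progenitors and leukaemias, had 1.80, 3.37, 11.8 and 1.38 CPM in LSD1CI EBs, against 0 to 0.304 CPM (median 0.207) in WT EBs, and changed by 4.81 ± 0.78 (adjusted p = 0.00040). Hoxa10 had 1.22, 2.60, 6.11 and 1.23 CPM, against 0 to 0.809 CPM (median 0.159), and changed by 3.58 ± 0.79 (adjusted p = 0.0049). Neither overlapped, and LSD1CI EB library 3 was the highest in both. Hoxb9 had 0.611, 2.48, 9.73 and 4.12 CPM, against 0.148 to 1.43 CPM (median 0.981), and changed by 2.42 ± 0.51 (adjusted p = 0.0035). Hoxa7 had 0.175, 0.857, 2.75 and 0.430 CPM, against 0 to 0.182 CPM (median 0.103), and changed by 3.54 ± 0.79 (adjusted p = 0.0060). For both the lowest LSD1CI library lay within the WT EB range. The count was 1 without LSD1CI EB library 3, 2 without library 2, 8 without WT EB library 5 and 0 against the WT EB libraries next to LSD1CI in the accession list, so it changed with the libraries compared.

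LSD1KO and LSD1CI EBs were also compared directly. EdgeR called 0 of 36 Hox genes higher and 0 lower in LSD1KO EBs than in LSD1CI EBs, against 7.37% and 4% of all genes, with a median of -1.89 against 0.06, but 14 members had an unadjusted p under 0.05 and DESeq2 called 8. Per kilobase of transcript, Hoxb1 led in LSD1KO EBs (5.89 RPKM), where Hoxd1 had 2.79 RPKM, and Hoxb2 (10.6), Hoxb6 (6.71), Hoxd1 (6.06) and Hoxd9 (6.03) led in LSD1CI EBs. Summed Hox levels in the 4 LSD1CI EB libraries were 44.5, 87.2, 267 and 238 CPM, a wide spread.

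The EBs labelled RCOR2KO had the lowest Hox levels of the EBs, but Rcor2 itself was only partly lower in them (44.6 to 53.8 CPM, against 121 to 153 CPM in WT EBs). In them 0 of 36 Hox genes rose and 6 fell, against 2.18% and 3.1% of all genes, with a median of -4.49 (-2.45 with the 11 members at 0 at their bound) against -0.02. Summed Hox levels were 7.02 ± 1.67 CPM in RCOR2KO EBs (n = 2), against 14.2 to 145 CPM in WT EBs. Hoxb2 had 0.363 and 0 CPM in RCOR2KO EBs, against 1.5 to 15.3 CPM (median 7.22) in WT EBs, and changed by -5.52 ± 1.05 (adjusted p = 0.0014). Hoxb3 had 0.666 and 0 CPM, against 2.93 to 23.7 CPM (median 6.13), and changed by -4.88 ± 1.12 (adjusted p = 0.0057). Hoxb4 had 0.0606 and 0.282 CPM, against 0.934 to 7.65 CPM (median 5.89), and changed by -4.78 ± 1.11 (adjusted p = 0.0060). Each of the 3 HoxB genes lay below every WT EB library. Hoxd1 had 0.666 and 0.113 CPM, against 0.885 to 16.6 CPM (median 7.67), and changed by -4.47 ± 1.06 (adjusted p = 0.0071). Hoxd9 had 0.424 and 0.169 CPM, against 0.738 to 17.1 CPM (median 5.31), and changed by -4.74 ± 1.15 (adjusted p = 0.0081). Neither HoxD gene overlapped between the genotypes.

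These calls rest on few libraries. The count was 0 without RCOR2KO EB library 2, 2 without library 1, 3 without WT EB library 1 or 5, 0 in a fit of these groups alone, 1 against the WT EB libraries next to RCOR2KO in the accession list and 17 with DESeq2. Neuroectoderm markers summed to 310 to 315 CPM in RCOR2KO EBs, against 33.9 to 172 CPM in WT EBs, and cardiac markers to 19.1 to 31.8 CPM, against 138.5 to 827.5 CPM; their part in the result was not tested. In RCOR1KO EBs edgeR called 0 of 36 Hox genes higher and 0 lower, against 0% and 0.00558% of all genes, with a median of -0.17 (-0.13 at the bound) against -0.02, 1 member at an unadjusted p under 0.05 and 0 called by DESeq2.

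In RCOR12DKO EBs 5 of 36 Hox genes rose and 8 fell, against 14.1% and 12.3% of all genes, with a median of -0.59 against -0.03. The share of Hox genes that rose was near that of all genes. The genes that fell were 4 of 8 anterior and 3 of 15 central genes and Hoxa13, and those that rose were central or posterior. Hoxb3 had 0.3, 0.697, 0.702 and 1.64 CPM in RCOR12DKO EBs, against 2.93 to 23.7 CPM (median 6.13) in WT EBs, and changed by -3.49 ± 0.73 (adjusted p = 0.00038). Hoxb2 had 1.38, 1.36, 1.64 and 1.13 CPM, against 1.5 to 15.3 CPM (median 7.22), and changed by -2.55 ± 0.60 (adjusted p = 0.0011). Hoxd1 had 1.26, 1.13, 1.93 and 1.13 CPM, against 0.885 to 16.6 CPM (median 7.67), and changed by -2.62 ± 0.67 (adjusted p = 0.0023). Hoxb3 lay below every WT EB library, and the other genes overlapped the lowest of them. Hoxb4 (0.624 to 1.86 CPM, against 0.934 to 7.65 CPM) and Hoxb6 (0 to 0.293 CPM, against 0.0492 to 10.4 CPM) fell by 2.18 and 5.22 on the log2 scale, both with overlap.

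Hoxd13 had 4.07, 4.98, 5.03 and 7.26 CPM in RCOR12DKO EBs, against 0.344 to 1.41 CPM (median 0.903) in WT EBs, and changed by 2.54 ± 0.49 (adjusted p = 0.00015). Hoxb9 had 3.77, 4.15, 3.60 and 5.19 CPM, against 0.148 to 1.43 CPM (median 0.981), and changed by 2.31 ± 0.51 (adjusted p = 0.00056). Both lay above every WT EB library, as did Hoxa6, Hoxa7 and Hoxd11, which changed by 3.68 to 4.14. The count was 8 without WT EB library 3, 7 with the block and 1 against the WT EB libraries next to RCOR12DKO in the accession list. Naive markers summed to 612 to 696 CPM in RCOR12DKO EBs, against 94.2 to 381 CPM in WT EBs, and their part in the result was not tested. In RCOR12DKO ESCs Hoxd13 and Hoxb9 already stood at 2.57 to 4.36 and 3.04 to 4.74 CPM.

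LSD1KO cells kept in serum held more Hox RNA than WT cells. In LSD1KO DMSO serum cells 10 of 26 Hox genes rose and 0 fell against WT DMSO serum cells, where 6.22% and 3.34% of all 16296 genes rose and fell, with a median of 1.96 against -0.01. They were 4 of 9 HoxA, 3 of 8 HoxD, 2 of 7 HoxB genes and 1 of 2 HoxC genes. Summed Hox levels were 60.2 ± 9.87 CPM in LSD1KO DMSO serum cells and 16.3 ± 1.91 CPM in WT DMSO serum cells (n = 2 each).

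Hoxd13 had 8.58 and 9.02 CPM in LSD1KO DMSO serum cells, against 3.11 and 2.49 CPM in WT DMSO serum cells, and changed by 1.64 ± 0.24 (adjusted p = 0.00038). Hoxb9 had 3.12 and 2.68 CPM against 0.713 and 0.785 CPM, and changed by 1.95 ± 0.28 (adjusted p = 0.00038). The genotypes were well apart for both genes. Hoxb2 had 3.24 and 3.79 CPM against 0.917 and 0.577 CPM, and changed by 2.22 ± 0.39 (adjusted p = 0.0013). Hoxa7 had 1.92 and 1.6 CPM against 0.255 and 0.231 CPM, and changed by 2.84 ± 0.48 (adjusted p = 0.00099). Hoxa3 had 1.85 and 3.63 CPM against 0.662 and 0.716 CPM, and changed by 1.97 ± 0.42 (adjusted p = 0.0038). These too did not overlap. Hoxa5 had 2.12 and 2.63 CPM against 0.713 and 0.439 CPM, and changed by 2.03 ± 0.45 (adjusted p = 0.0047). Hoxc13 had 2.10 and 2.37 CPM against 0.713 and 0.624 CPM, and changed by 1.73 ± 0.36 (adjusted p = 0.0037). Hoxd8 and Hoxd9 changed by 2.82 and 4.18. Leaving out WT DMSO serum library 2 left 5 genes called, and LSD1KO DMSO serum library 1 or 2 left 6 each; Hoxc13 lost its call without any 1 of the 4 libraries.

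In LSD1CI DMSO serum cells 1 of 26 rose and 0 fell, against 2.41% and 0.577% of all genes, with a median of -0.14 against 0.00. The count was 0 without LSD1CI library 2, without WT library 1 or 2 and in a fit of these groups alone.

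The LSD1KO effect in EBs was set against that in serum, among cells given DMSO; the labels do not say whether these EBs and serum cells were made together. It was higher in EBs for 1 of 33 Hox genes and lower for 9, against 8.42% and 6.23% of all 16716 genes, with a median difference of -2.38 against -0.02. Among the 9 were 4 HoxB genes and 4 HoxD genes, and Hoxa2 was the 1 gene with a stronger rise in EBs (3.43 ± 0.90, adjusted p = 0.00997). Hoxd9 differed by -6.99 ± 0.66 (adjusted p = 5.0e-06): it changed by -2.74 in EBs and by 4.18 in serum. Hoxb2 differed by -3.34 ± 0.45 (adjusted p = 8.9e-05), with 6.72 and 4.5 CPM in LSD1KO DMSO EBs, against 13.2 and 8.65 CPM in WT DMSO EBs. Without WT DMSO EB library 1, 6 genes were called.

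WT EpiLCs hold little Hox RNA, and LSD1KO EpiLCs held more. In LSD1KO DMSO EpiLCs 11 of 23 Hox genes rose and 0 fell against WT DMSO EpiLCs, where 6.82% and 2.66% of all 15986 genes rose and fell, with a median of 2.75 (2.39 at the bound) against 0.00. In each LSD1KO DMSO EpiLC library 16 members had 10 counts or more, against 4 in each WT DMSO EpiLC library, so many of the 23 passed the filter through LSD1KO cells, and the 1 direction of the calls is in part set by the filter. Hoxb9 had 2.39 and 2.79 CPM in LSD1KO DMSO EpiLCs, against 0.216 and 0.453 CPM in WT DMSO EpiLCs, and changed by 2.86 ± 0.34 (adjusted p = 1.2e-05). Hoxc13 had 1.72 and 1.03 CPM against 0.539 and 0.165 CPM, and changed by 1.96 ± 0.53 (adjusted p = 0.0088). Neither gene overlapped. Hoxd4 had 2.05 and 1.07 CPM against 0.0539 and 0 CPM, a ratio of 63.5 (17.2 to 531) against 2 counts. By the same measure Hoxd8 gave 40.9 (10.9 to 344), Hoxb13 30.9 (8.17 to 262), Hoxa10 28.7 (7.56 to 243) and Hoxd9 22.1 (5.73 to 189). Hoxc4 (0.981 and 0.780 CPM) and Hoxd3 (0.705 and 0.223 CPM) were at 0 in WT DMSO EpiLCs and were at least 12.3-fold and at least 6.50-fold higher. Without WT DMSO EpiLC library 2, 6 genes were called, and Hoxc13 lost its call without that library or without LSD1KO DMSO EpiLC library 1.

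The LSD1KO comparisons in ESCs, serum and EpiLCs share no library. Of the 19 genes that rose in LSD1KO ESCs, 6 were among the 11 in EpiLCs (Hoxa10, Hoxc4, Hoxd3, Hoxd4, Hoxd8 and Hoxd9) and 5 were among the 10 in serum (Hoxa7, Hoxb2, Hoxd8, Hoxd9 and Hoxd13). Serum and EpiLCs shared 6, among them Hoxa3, Hoxb9, Hoxc13, Hoxd8 and Hoxd9. Hoxd8 and Hoxd9 rose in all 3. Of the members tested, 19 of 29 rose in ESCs, 11 of 23 in EpiLCs and 10 of 26 in serum. Lists that large would share members by chance too. Whether they shared more than that was not tested. In LSD1CI DMSO EpiLCs edgeR called 0 of 23 Hox genes higher and 0 lower, against 1.61% and 0.538% of all genes, with a median of 0.19 (0.00 at the bound) against 0.01, 2 members at an unadjusted p under 0.05 and 0 called by DESeq2.

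**Figure D5:**
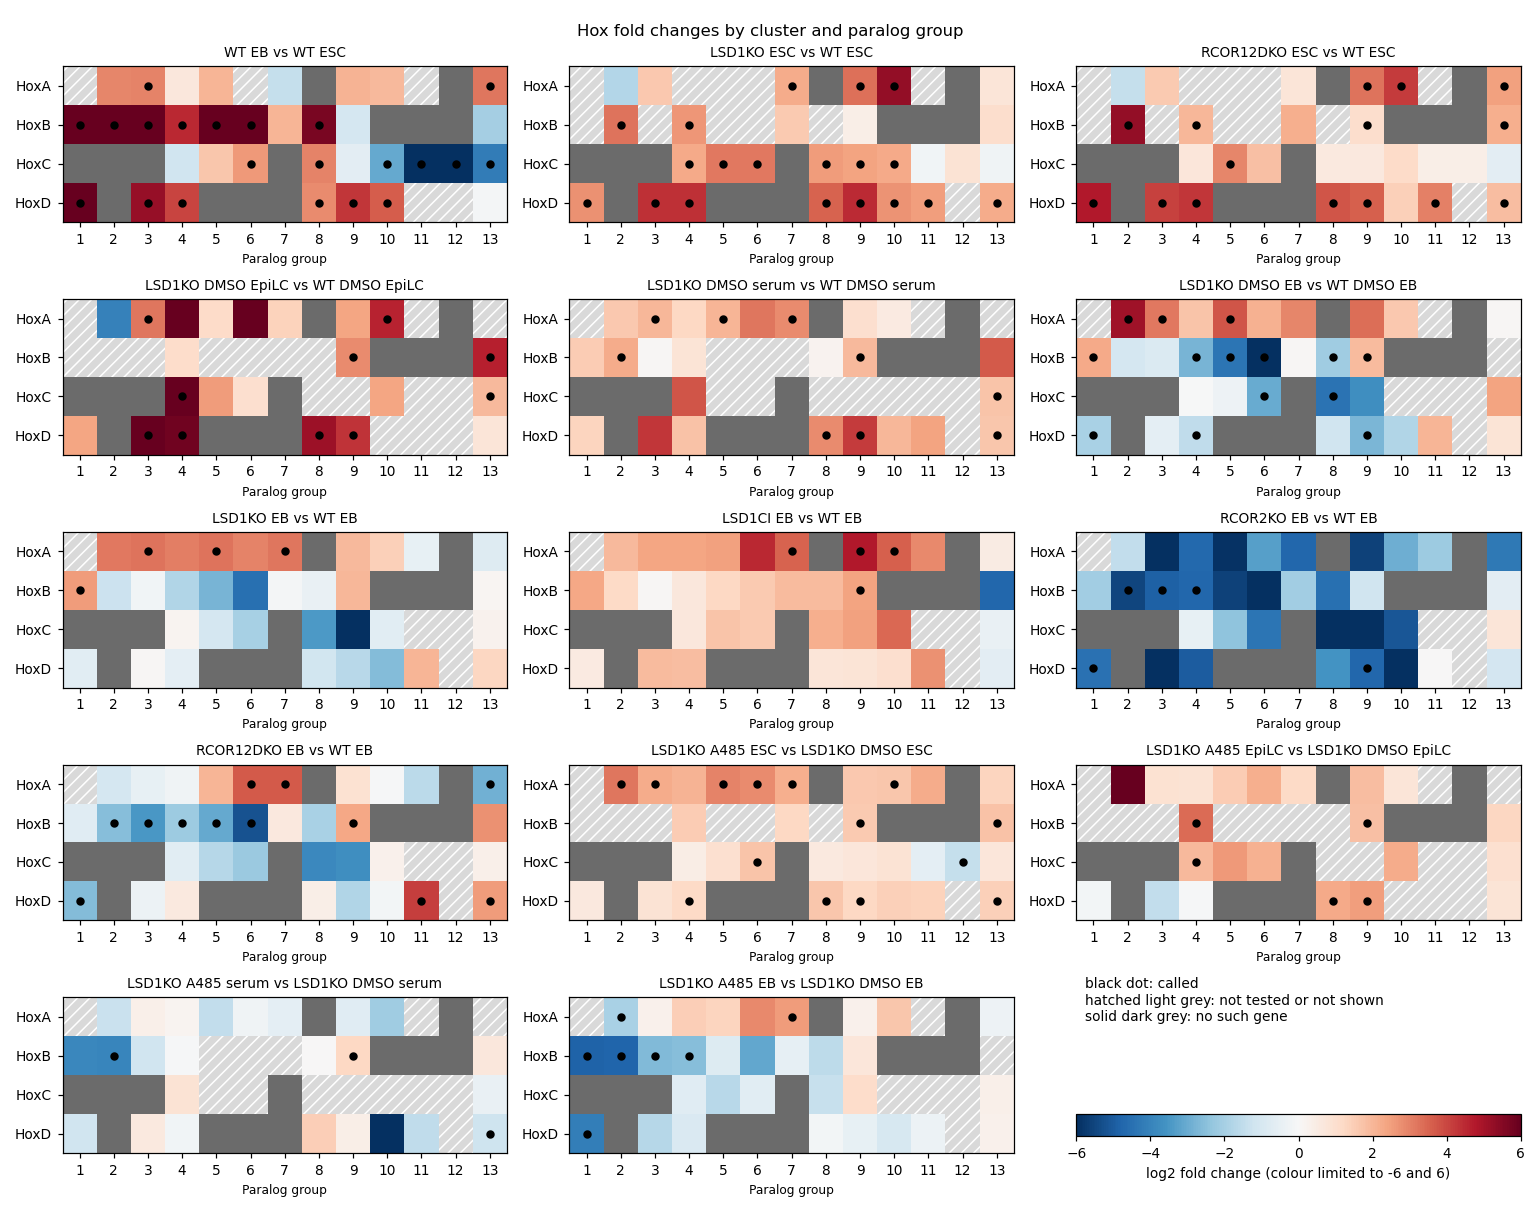
Log2 fold changes of 14 comparisons by cluster (rows) and paralog group (columns), the group named first over the group named after it, with colours limited to -6 and 6; dots mark genes called, hatching genes not tested or not shown and dark grey paralogs that do not exist. In LSD1KO ESCs all 8 HoxD genes tested carry a dot, and in RCOR2KO EBs Hoxb2, Hoxb3, Hoxb4, Hoxd1 and Hoxd9 carry dots.

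A485 was given to test what P300 and CBP do in LSD1KO cells. In ESCs 13 of 32 Hox genes rose and 1 fell in LSD1KO A485 ESCs against LSD1KO DMSO ESCs, where 5.94% and 11.7% of all 15708 genes rose and fell, with a median of 1.39 against 0.00, and 30 of the 32 had a positive change. Summed Hox levels were 108.5 ± 5.18 CPM with A485 and 58.2 ± 0.97 CPM with DMSO (n = 2 each). The 13 were 6 HoxA, 4 HoxD and 2 HoxB genes and Hoxc6.

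Hoxb9 had 8.64 and 8.10 CPM in LSD1KO A485 ESCs, against 3.19 and 2.17 CPM in LSD1KO DMSO ESCs, and changed by 1.58 ± 0.20 (adjusted p = 1.2e-06). Hoxd8 had 8.06 and 7.89 CPM against 2.47 and 2.42 CPM, and changed by 1.64 ± 0.19 (adjusted p = 3.4e-07). Hoxd9 had 7.98 and 9.91 CPM against 2.96 and 4.27 CPM, and changed by 1.25 ± 0.20 (adjusted p = 3.1e-05). No library of the treatments overlapped for these genes. Hoxd13 had 6.10 and 5.01 CPM against 1.73 and 2.26 CPM, and changed by 1.42 ± 0.22 (adjusted p = 2.2e-05). Hoxb13 had 4.81 and 4.20 CPM against 1.46 and 1.11 CPM, and changed by 1.74 ± 0.25 (adjusted p = 6.3e-06). Hoxd4 had 4.43 and 5.68 CPM against 1.81 and 2.44 CPM, and changed by 1.19 ± 0.23 (adjusted p = 0.00023). These did not overlap either. Hoxa10 had 2.43 and 3.11 CPM against 0.906 and 0.784 CPM, and changed by 1.65 ± 0.31 (adjusted p = 0.00015). Of the run from Hoxa2 to Hoxa7, 5 genes rose, by 2.16 to 3.19. Hoxc12 was the 1 gene that fell, with 3.68 and 4.76 CPM with A485, against 11.2 and 10.7 CPM with DMSO, a change of -1.44 ± 0.17 (adjusted p = 5.3e-07). The calls of Hoxd4 and Hoxd9 were lost without LSD1KO DMSO ESC library 1, and that of Hoxd4 also without LSD1KO A485 ESC library 2.

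In EpiLCs 5 of 23 Hox genes rose and 0 fell with A485, against 7.43% and 10.2% of all genes, with a median of 1.55 against 0.00. Hoxb9 had 9.86 and 9.65 CPM in LSD1KO A485 EpiLCs, against 2.39 and 2.79 CPM in LSD1KO DMSO EpiLCs, and changed by 1.80 ± 0.27 (adjusted p = 3.6e-05). Hoxd8 had 6.35 and 3.67 CPM against 0.919 and 0.981 CPM, and changed by 2.28 ± 0.42 (adjusted p = 0.00035). Hoxd9 had 3.21 and 3.35 CPM against 0.736 and 0.357 CPM, and changed by 2.50 ± 0.49 (adjusted p = 0.00049). The treatments did not overlap for any of them. Hoxc4 had 2.68 and 4.70 CPM against 0.981 and 0.780 CPM, and changed by 1.97 ± 0.43 (adjusted p = 0.0013). Hoxb4 had 1.41 and 1.05 CPM against 0.123 and 0.0891 CPM, and changed by 3.42 ± 0.95 (adjusted p = 0.0063). Hoxb4 lost its call without any 1 of the 4 libraries, and 3 genes were called without A485 library 1 or 2 or DMSO library 2.

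In serum 1 of 26 rose and 2 fell with A485, against 3.52% and 9% of all genes, with a median of -0.50 against -0.04. Hoxb9 again rose, with 7.70 and 6.96 CPM in LSD1KO A485 serum cells, against 3.12 and 2.68 CPM in LSD1KO DMSO serum cells (1.25 ± 0.25, adjusted p = 0.0018). Hoxb2 had 0.231 and 0.237 CPM against 3.24 and 3.79 CPM, and changed by -3.97 ± 0.45 (adjusted p = 3.9e-05). Hoxd13 had 4.16 and 3.55 CPM against 8.58 and 9.02 CPM, and changed by -1.27 ± 0.24 (adjusted p = 0.0011). None of the 3 overlapped. The fit of these groups alone called 7 Hox genes. ESCs, EpiLCs and serum cells share no library, and Hoxb9 was the 1 gene called higher with A485 in all 3.

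In EBs A485 lowered some of the anterior genes. There 1 of 33 Hox genes rose and 6 fell in LSD1KO A485 EBs against LSD1KO DMSO EBs, where 4.26% and 9.54% of all genes rose and fell, with a median of -0.55 (-0.47 at the bound) against 0.03, and 5 of the 6 were anterior. Hoxb1 had 0.336 and 0.160 CPM in LSD1KO A485 EBs, against 7.43 and 7.63 CPM in LSD1KO DMSO EBs, and changed by -4.87 ± 0.41 (adjusted p = 3.9e-06). Hoxb2 had 0.168 and 0.200 CPM against 6.72 and 4.5 CPM, and changed by -4.80 ± 0.41 (adjusted p = 4.4e-06). Hoxd1 had 0.280 and 0.0400 CPM against 2.88 and 2.73 CPM, and changed by -4.17 ± 0.54 (adjusted p = 0.00012). The treatments were far apart for all 3. Hoxb3 had 0.560 and 0.641 CPM against 3.18 and 4.98 CPM, and changed by -2.66 ± 0.42 (adjusted p = 0.00047). Hoxa2 had 0.644 and 0.981 CPM against 3.74 and 3.04 CPM, and changed by -1.95 ± 0.46 (adjusted p = 0.0067). Hoxa7 rose, with 4.03 and 4.33 CPM against 0.902 and 0.622 CPM (2.54 ± 0.57, adjusted p = 0.0051). These also did not overlap. The anterior Hoxa3 stood at 4.62 and 4.97 CPM with A485 and at 3.26 and 5.10 CPM with DMSO. Summed HoxA levels were 31.9 and 30.6 CPM with A485, against 30.9 and 28.2 CPM with DMSO. HoxB sums were 5.79 and 8.31 CPM against 22.9 and 22.3 CPM, and HoxD sums 6.77 and 5.47 CPM against 11.3 and 9.78 CPM. Without LSD1KO DMSO EB library 1, 4 genes were called. Naive markers summed to 729 to 824 CPM in LSD1KO A485 EBs, against 342 to 343 CPM in LSD1KO DMSO EBs, and primitive streak markers to 12.8 to 14.1 CPM, against 290.8 to 344.3 CPM. Their part in the result was not tested.

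Of the TALE partners of the Hox proteins, 7 of 9 rose and 0 fell in WT EBs against WT ESCs, where 22.6% and 14.3% of all genes did. Pbx3 averaged 62.6 ± 9.03 CPM in WT EBs and 8.06 ± 2.80 CPM in WT ESCs (log2 change 2.82), and Meis1 29.3 and 1.43 CPM (4.18). In RCOR12DKO EBs 7 of 9 fell and 0 rose, against 12.3% and 14.1% of all genes, among them Pbx3, at 28.3 CPM in RCOR12DKO EBs and 62.6 CPM in WT EBs (-1.16), and Meis1, at 2.98 and 29.3 CPM (-3.31). With A485, 6 of 9 fell in EBs, against 9.54% of all genes, led by Pknox2 at 1.18 CPM in LSD1KO A485 EBs and 25.0 CPM in LSD1KO DMSO EBs (-4.32). In LSD1KO, LSD1CI, RCOR2KO and RCOR1KO EBs 0 of 9 were called in either direction, while in LSD1KO DMSO EBs 1 fell, which was Meis1, at 10.4 CPM in LSD1KO DMSO EBs and 40.0 CPM in WT DMSO EBs (-2.03), against 7.13% of all genes. In LSD1KO ESCs 2 of 9 rose, against 10.2% of all genes, Meis2 at 36.5 CPM in LSD1KO ESCs and 5.79 CPM in WT ESCs (2.64) and Pknox2 (1.31), and in MLL4KO ESCs Meis1 rose to 21.6 CPM, against 1.43 CPM in WT ESCs (3.80). For TALE genes 3 of 9 rose and 1 fell in WT DMSO serum cells, against 13.3% and 7.97% of all genes.

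A list of 16 genes held regulators that act on the clusters from above and genes of retinoic acid metabolism and response. Of these, 9 rose and 5 fell in WT EBs against WT ESCs (22.6% and 14.3% of all genes). Cyp26a1, which breaks down retinoic acid, stood at 77.0 CPM in WT EBs and 0.0521 CPM in WT ESCs, and T, the primitive streak factor, at 52.7 and 0.694 CPM. In LSD1KO EBs 6 of 16 rose and 1 fell, against 8.28% and 5.42% of all genes: T averaged 432 ± 79.2 CPM in LSD1KO EBs and 52.7 ± 42.3 CPM in WT EBs, and Rarb, a receptor that retinoic acid induces, 1.52 and 16.8 CPM (-3.44). The second set gave 6 of 15 higher and 2 lower, against 11.7% and 7.13%, with T at 299 CPM in LSD1KO DMSO EBs and 18.6 CPM in WT DMSO EBs (3.92) and Rarb at 0.528 and 20.3 CPM (-5.33). With A485, 11 of 15 fell in EBs, against 9.54% of all genes, T to 6.43 CPM in LSD1KO A485 EBs, against 299 CPM in LSD1KO DMSO EBs (-5.45), and Fgf8, a signal of the growing tail, to 0.192 CPM, against 71.8 CPM (-8.47). In RCOR12DKO EBs 3 rose and 5 fell (14.1% and 12.3% of all genes), with Cyp26a1 at 0.571 CPM in RCOR12DKO EBs and 77.0 CPM in WT EBs (-7.08), and in RCOR2KO EBs 1 rose and 3 fell (2.18% and 3.1% of all genes), with Rarb at 1.01 and 16.8 CPM (-4.10). In LSD1KO ESCs 2 rose and 6 fell (10.2% and 10.8% of all genes), and in MLL4LSD1DKO ESCs 7 of 16 fell (5.58%).

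Among 13 Polycomb, Trithorax and related chromatin genes few were called. Bmi1, a Polycomb subunit, stood at 11.5 CPM in LSD1KO EBs and 32.6 CPM in WT EBs, and at 16.9 CPM in LSD1KO DMSO EBs and 44.4 CPM in WT DMSO EBs, a log2 change of -1.48 in each. In serum it went up, with 20.1 CPM in LSD1KO DMSO serum cells and 8.04 CPM in WT DMSO serum cells (1.32). Suz12, a core subunit of the H3K27 methyltransferase complex, rose in LSD1KO ESCs, with 654 ± 34.4 CPM against 313 ± 60.6 CPM in WT ESCs (1.08). In RCOR12DKO EBs 0 of 13 rose and 3 fell, against 14.1% and 12.3% of all genes, which were Cbx2, Bmi1 and Kdm6b.

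Genes lying next to or inside the clusters were counted too. In LSD1KO ESCs 7 of 18 tested rose and 1 fell, against 10.2% and 10.8% of all genes, among them Cbx1 beside HoxB, at 515 CPM in LSD1KO ESCs and 229 CPM in WT ESCs (1.17). In LSD1KO EBs 3 of 25 rose and 0 fell, near the 8.28% and 5.42% of all genes, and Skap2, beside HoxA, stood at 35.6 CPM in LSD1KO EBs and 11.2 CPM in WT EBs (1.68), and at 48.8 CPM in LSD1KO DMSO EBs and 8.15 CPM in WT DMSO EBs (2.49). Evx1, the homeobox gene past the posterior end of HoxA, stood at 0.195 CPM in RCOR12DKO EBs and 15.7 CPM in WT EBs (-6.32), and at 0.212 CPM in LSD1KO A485 EBs and 20.8 CPM in LSD1KO DMSO EBs (-6.51). Of the related ParaHox genes, Gsx2 stood at 30.6 CPM in MLL4KO ESCs and 22.3 CPM in MLL4KOLSD1CI ESCs, against 0.0961 CPM in WT ESCs.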

How the data were processed

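Total RNA of 112 libraries was sequenced from a directional, rRNA-depleted kit. The authors aligned reads to mm9 with STAR 2.7.9a, removed duplicates with Picard 2.25.5 and deposited raw counts per gene from featureCounts, with no normalization; strand was used in the counting. Here CPM are counts scaled to the library total, and RPKM divide them by gene length. Groups came from the GEO labels. Counts were tested with edgeR 4.0.16 in R 4.3.3 (quasi-likelihood F test, TMM scaling, filterByExpr by group). P-values were adjusted by the Benjamini-Hochberg method over all genes tested. ESC genotypes, the DOX series, and ESCs with A485 or DMSO had separate fits. So had EBs without solvent and EBs with DMSO or A485, while serum cells and EpiLCs had 1 fit each. The WT groups of all cultures shared a fit, as did the WT and LSD1KO DMSO EBs and serum cells of the interaction. A gene was called at an adjusted p under 0.01 and an absolute log2 fold change over 1, the limits the study used. Standard errors are the log2 fold change over the square root of F. Between 23 and 36 of the 39 members passed the filter, depending on the fit, and 35 were called in at least 1 comparison.

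All members were eligible to be named. Values per library are given for called members, at most the 8 with the highest mean CPM over both groups and at least 1 CPM in 1 group, and others are given by counts and ranges. Some genes and sequences are not reported here. The members and lists were chosen with earlier results of these data known. For genes with 1 to 3 counts in a group the ratio of summed counts is given with an exact 95% interval, and against a group at 0 a bound with a floor of 3 counts per library. Libraries of the same number deviated together in LSD1Res (correlation 0.40 to 0.48 over 4 pairs) and in DKO_LSD1 ESCs (0.35 to 0.46 over 4 pairs); the labels do not say what a number marks. Libraries of a group never agreed within sampling noise (smallest chi-square per degree of freedom 4.76). DESeq2 1.42.0 and other filters, scalings and libraries were alternatives. Tested on simulated data, the edgeR step called 91% of simulated 3-fold changes and 94% of 6-fold ones for LSD1KO against WT ESCs (14913 genes, 2 false calls). For LSD1KO DMSO against WT DMSO EBs it called 80% and 96% (15888 genes, 3 false calls). The changes were placed only in genes with more counts than many Hox genes had, and the compared groups were fitted alone. These rates therefore do not carry over to Hox genes with low counts or to the fits of many groups.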

Additional observations from a re-analysis of the deposited data

Results flagged for a closer look

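Among 40 sets of values, each of 1 gene in 1 group of 4 to 10 libraries, tested for a library far from the others, 2 were found, and chance gives about 1 in 20. Hoxd1 stood at 1.93 CPM in RCOR12DKO EB library 3, above the other RCOR12DKO EBs, and Hoxd8 at 2.68 CPM in LSD1KO ESC library 4, below the other LSD1KO ESCs.

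For several members the effect of LSD1KO differed between DMSO EBs and DMSO serum cells by edgeR's test of the interaction, given as the log2 effect in EBs minus that in serum. It was 3.43 for Hoxa2 (adjusted p = 0.00997), -3.34 for Hoxb2, -3.70 for Hoxb4, -5.44 for Hoxb5, -3.38 for Hoxd1, -3.33 for Hoxd4, -4.08 for Hoxd8 and -6.99 for Hoxd9. Hoxb6 gave -8.90, a fitted value that rests on a group near 0.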

How the results depend on the processing

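Over the counts of Hox genes called, 263 values under an alternative were within 1.5 times the main count and 76 were not, and of the values of named genes 1055 kept their call, 197 lost it and 0 reversed. The cause of these shifts was not tested. DESeq2 gave 10 (main 6) for WT DMSO EpiLC against WT ESC, 7 (main 4) for LSD1KO EB against WT EB, 9 (main 4) for LSD1CI EB against WT EB, 17 (main 6) for RCOR2KO EB against WT EB, 8 (main 0) for LSD1KO EB against LSD1CI EB, 2 (main 1) for LSD1CI ESC against WT ESC, 5 (main 3) for RCOR2KO ESC against WT ESC, 1 (main 0) for RCOR1KO ESC against WT ESC, 1 (main 0) for LSD1Res DOX ESC against LSD1Res noDOX ESC. No filter on low counts gave 2 (main 4) for LSD1KO EB against WT EB, 3 (main 6) for RCOR2KO EB against WT EB. Counts halved and rounded up gave 1 (main 0) for LSD1KO EB against LSD1CI EB, 6 (main 3) for LSD1KO A485 serum against LSD1KO DMSO serum, 2 (main 1) for LSD1CI ESC against WT ESC, 1 (main 2) for MLL4KO ESC against WT ESC. A fit of the compared groups alone gave 13 (main 22) for WT EB against WT ESC, 1 (main 4) for LSD1KO EB against WT EB, 1 (main 4) for LSD1CI EB against WT EB, 0 (main 6) for RCOR2KO EB against WT EB, 0 (main 1) for LSD1CI DMSO serum against WT DMSO serum, 7 (main 3) for LSD1KO A485 serum against LSD1KO DMSO serum, 0 (main 1) for LSD1CI ESC against WT ESC, 1 (main 3) for RCOR2KO ESC against WT ESC, 0 (main 2) for MLL4KO ESC against WT ESC, 2 (main 5) for MLL4KOLSD1CI ESC against WT ESC. Only the WT EB libraries next to the mutant in the accession list gave 0 (main 4) for LSD1CI EB against WT EB, 1 (main 6) for RCOR2KO EB against WT EB, 1 (main 13) for RCOR12DKO EB against WT EB. A term for the libraries that lack counts on unplaced contigs gave 10 (main 19) for LSD1KO ESC against WT ESC, 2 (main 1) for LSD1CI ESC against WT ESC, 8 (main 3) for RCOR2KO ESC against WT ESC, 1 (main 2) for MLL4KO ESC against WT ESC, 5 (main 3) for MLL4LSD1DKO ESC against WT ESC. The replicate number as a block, in a fit of the compared groups alone, gave 0 (main 4) for LSD1CI EB against WT EB, 0 (main 6) for RCOR2KO EB against WT EB, 7 (main 13) for RCOR12DKO EB against WT EB, 9 (main 0) for LSD1KO EB against LSD1CI EB, 7 (main 3) for LSD1KO A485 serum against LSD1KO DMSO serum, 0 (main 1) for LSD1CI ESC against WT ESC, 1 (main 3) for RCOR2KO ESC against WT ESC, 10 (main 16) for RCOR12DKO ESC against WT ESC, 3 (main 5) for MLL4KOLSD1CI ESC against WT ESC, 3 (main 0) for LSD1Res DOX ESC against LSD1Res noDOX ESC, 1 (main 0) for DKO_LSD1 DOX ESC against DKO_LSD1 noDOX ESC; for the other comparisons with a block the count stayed within 1.5 times. Only LSD1Res and DKO_LSD1 libraries were paired by the check, so elsewhere the samples share only a number. No block was run for the comparisons of WT cultures or the interaction. Leaving out 1 library at a time gave 0 to 1 for LSD1CI DMSO serum against WT DMSO serum, 1 to 8 for LSD1CI EB against WT EB, 1 to 1 for LSD1CI ESC against WT ESC, 4 to 5 for LSD1KO A485 EB against LSD1KO DMSO EB, 11 to 16 for LSD1KO A485 ESC against LSD1KO DMSO ESC, 3 to 4 for LSD1KO A485 EpiLC against LSD1KO DMSO EpiLC, 2 to 3 for LSD1KO A485 serum against LSD1KO DMSO serum, 9 to 11 for LSD1KO DMSO EB against WT DMSO EB, 6 to 10 for LSD1KO DMSO EpiLC against WT DMSO EpiLC, 5 to 8 for LSD1KO DMSO serum against WT DMSO serum, 0 to 1 for LSD1KO EB against LSD1CI EB, 0 to 4 for LSD1KO EB against WT EB, 6 to 10 for LSD1KO effect in DMSO EB minus LSD1KO effect in DMSO serum, 0 to 1 for MLL4KO ESC against WT ESC, 3 to 5 for MLL4KOLSD1CI ESC against WT ESC, 2 to 4 for MLL4LSD1DKO ESC against WT ESC, 8 to 14 for RCOR12DKO EB against WT EB, 13 to 14 for RCOR12DKO ESC against WT ESC, 0 to 9 for RCOR2KO EB against WT EB, 2 to 4 for RCOR2KO ESC against WT ESC, 2 to 5 for WT DMSO EpiLC against WT ESC, 7 to 8 for WT DMSO serum against WT ESC, and 0 throughout for DKO_LSD1 DOX ESC against DKO_LSD1 noDOX ESC, LSD1CI DMSO EpiLC against WT DMSO EpiLC, LSD1KO DOX ESC against LSD1KO noDOX ESC, LSD1Res DOX ESC against LSD1Res noDOX ESC, RCOR1KO EB against WT EB, RCOR1KO ESC against WT ESC. Where that left 1 library in a group, the lone library was assumed to vary like the other groups. ESC groups of over 5 libraries were not left out in turn. In WT DMSO EpiLCs 13 members had no count in either library, so a lower level in a mutant could not be seen for them.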
